A study of Drosophila melanogaster with 28 samples.

Results

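The ribosome footprints of late germline cysts were compared with those of early cysts, gene by gene, in Drosophila melanogaster ovaries collected 38 h and 9 h after heat shock (AHS). A gene was included when its Ribo-seq level was over 10 FPKM (fragments per kilobase of coding sequence, scaled to the mapped fragments of the library) in at least 1 of the 2 columns. This held for 6488 of the 13968 genes in the Ribo-seq table, or 46.4%. Each time point was represented by 2 Ribo-seq samples of pooled whole adult ovaries, which the authors had combined into 1 value per gene with a lower and an upper confidence bound. All groups carried the same genotype in a w background, with the bam86 allele on both homologues, the heat shock transgene hs-bam.O 11d on one of them, and 1 copy of nosP-GAL4-NGT40. All 4 samples had also received the same treatment, 37C for 1 h followed by 34C for 2 h and a return to 25C. By the labels, only the time of collection differed, and they do not state a dissection or sequencing batch. The study assigned 9 h to the 2-cell cyst (2cc) and 38 h to the 16-cell cyst (16cc), noted that cyst stages became more mixed at later times, and noted that Bam from the transgene lasted for a shorter time than Bam does in wild type. The hs-bam transgene is driven by a heat shock promoter and so is not restricted to germ cells.

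In the Drosophila ovary, a germline stem cell divides to give a cystoblast, which divides with incomplete cytokinesis into a cyst of interconnected germ cells. Bag of marbles (Bam) with its partner Bgcn switches the cystoblast into these divisions, and the cyst then stops dividing, enters meiosis and selects an oocyte under the control of RNA-binding proteins such as Orb, Bruno and Rbp9. Because many of these proteins repress or activate translation, the footprints that ribosomes protect from nuclease on an mRNA give a view of which proteins are being made that the mRNA level alone does not give.

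Since the deposited values held no replicate measurements, no test and no p-value could be computed, and the bounds are the only error given. Their median half-width was 25.8% of the value at 9 h and 25.9% at 38 h over the included genes. A gene was counted as called when the 2 values differed by over 1.6-fold, and the words rose and fell are kept for called genes whose bounds did not overlap as well. These bounds describe the spread that the authors' program estimated. The labels do not state whether the 2 samples of a time point came from separate dissections, but the paper describes them as biological replicates.

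By fold alone, 638 genes (9.83% of those included) were higher at 38 h and 480 (7.4%) were lower. With bounds apart, 362 rose (5.58%) and 266 fell (4.1%). The median log2 ratio over all included genes was -0.05, and 50.3% of the genes lay within 1.25-fold of no difference. A gene that entered through 1 time point only was bound to be higher there, and this applied to 286 genes over 10 FPKM at 38 h alone and to 294 at 9 h alone. Among the 5908 genes over 10 FPKM at both times, 467 were called higher and 358 lower.

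**Figure D1:**
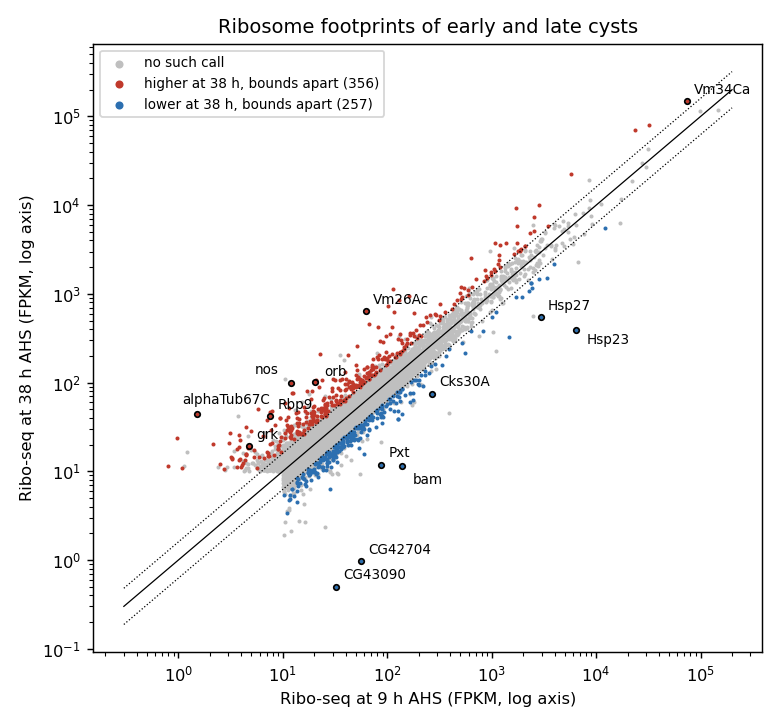
Ribo-seq level at 9 h AHS (x axis, FPKM, log scale) against 38 h AHS (y axis, FPKM, log scale) for the included genes with values above 0 at both times. Red points mark the 356 genes that rose and blue points the 257 that fell with bounds apart, the solid line is equality and the dotted lines are 1.6-fold; alphaTub67C, nos and orb sit far above the lines and bam, Pxt and Hsp23 far below.

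The ovary samples also held footprints from somatic cells, and 1 somatic set moved strongly with time. Of 25 late follicle cell markers (yolk, vitelline membrane and chorion proteins), 23 were included. Of these, 22 rose (95.7%, against 5.58% of all included genes) and none fell. Their median log2 ratio was 2.02 in Ribo-seq and 0.90 in RNA-seq. Over 9, 18, 28 and 38 h, their summed level was 139872, 404354, 216766 and 337779 FPKM. Their share of all footprints, estimated from FPKM and coding length, was 6.33%, 16.3%, 10.8% and 14.9% at these times. No member of this set was at 0 at 9 h or 38 h. Whether older egg chambers differed in amount between the samples was not tested, and in whole ovaries more cells of a type and more footprints per cell cannot be told apart. Without the late follicle markers, 616 genes were called higher and 480 lower, and with bounds apart 340 rose and 266 fell. The study's lists of heat shock and contaminant genes held 95 included genes, of which 53 were called higher and 9 lower. Over all included genes, 9.83% were called higher and 7.4% lower. Without these, 585 genes were called higher and 471 lower, and with bounds apart 312 rose and 258 fell. Fat body, hemocyte and immune genes had 15 included members. Of these, 3 rose (20%, against 5.58% of all included genes) and 1 fell (6.67%, against 4.1%) with bounds apart. The ovarian sheath muscle set had a median log2 ratio of 0.36 over 15 genes, of which 1 rose (6.67%) and none fell. The escort, cap and early follicle cell set had one of -0.13 over 13 genes, of which 1 rose (7.69%) and 1 fell (7.69%). Of 18 germline markers, all were included, and the median log2 ratio was -0.20. Among them 4 rose (22.2%, against 5.58% of all included genes) and 2 fell (11.1%, against 4.1%). Of the same markers, vasa (vas), the germline RNA helicase, had 399 FPKM at 9 h and 355 FPKM at 38 h, and aubergine (aub), a piRNA-binding protein, 219 and 153 FPKM, and neither was called.

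Several RNA-binding proteins that act in the cyst and the oocyte rose. The footprint level of orb (chr3R:23260610-23280856, minus strand, positions from the Ensembl annotation of the BDGP6 assembly, which has the coordinates of dm6) was 20.3 FPKM at 9 h with bounds of 14.9 and 25.7, and 103 FPKM at 38 h with bounds of 79.3 and 126. This 5.06-fold rise in the CPEB-type regulator of polyadenylation and translation was far outside the bounds. For nos, which encodes the translational repressor Nanos, the level was 11.9 FPKM at 9 h (5.10 to 18.6) and 98.9 FPKM at 38 h (71.4 to 126), an 8.34-fold rise. The paper describes an early drop of nos footprints and RNA that includes 9 h, with full recovery by 28 h, so the 9 h value was a low point. Rbp9, the Elav-family protein required for cystocyte differentiation, went from 7.51 FPKM (4.10 to 10.9) to 42.0 FPKM (31.8 to 52.3). Rbp9 was included through its 38 h level alone, so it could only be higher there. bru1, which encodes the translational repressor Bruno, went from 40.6 FPKM (30.1 to 51.1) to 110 FPKM (85.2 to 134). The zinc-finger transcription factor gene ovo, a germline marker named after its value was seen, had a log2 ratio of 1.24. In all of these the bounds at 38 h lay wholly above those at 9 h.

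Other members of the same list of cyst and oocyte RNA-binding regulators fell. Of 55 included members, 5 rose (9.09%, against 5.58% of all included genes), 7 fell (12.7%, against 4.1%) and 43 were not called, and the median log2 ratio of the list was -0.18 beside -0.05 for all included genes. bam itself had 137 FPKM at 9 h (108 to 167) and 11.4 FPKM at 38 h (6.94 to 15.8), a 12.1-fold fall in footprints on an mRNA that here comes from a pulse of the transgene. bgcn, which encodes the Bam partner, had 26.4 FPKM at 9 h (20.3 to 32.4) and 12.4 FPKM at 38 h (9.27 to 15.6). Pxt had 87.6 FPKM (69.0 to 106) at 9 h and 11.9 FPKM (8.35 to 15.5) at 38 h, a 7.36-fold fall, and it encodes a cyclooxygenase-like peroxidase and not an RNA-binding protein. The double-stranded RNA-binding protein gene stau fell in the same direction, from 19.6 to 9.78 FPKM, and was included through its 9 h level alone. Among genes of the list named here after their values were seen, Rbfox1, a repressor of translation and regulator of splicing in cysts, had a log2 ratio of -0.99, and pum, which encodes the Nanos partner Pumilio, one of -0.69. The call of pum was lost (-0.45) when the median of its coding length class, described further on, was subtracted. Rbfox1 and pum had RNA log2 ratios of -0.30 and -0.04.

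**Figure D2:**
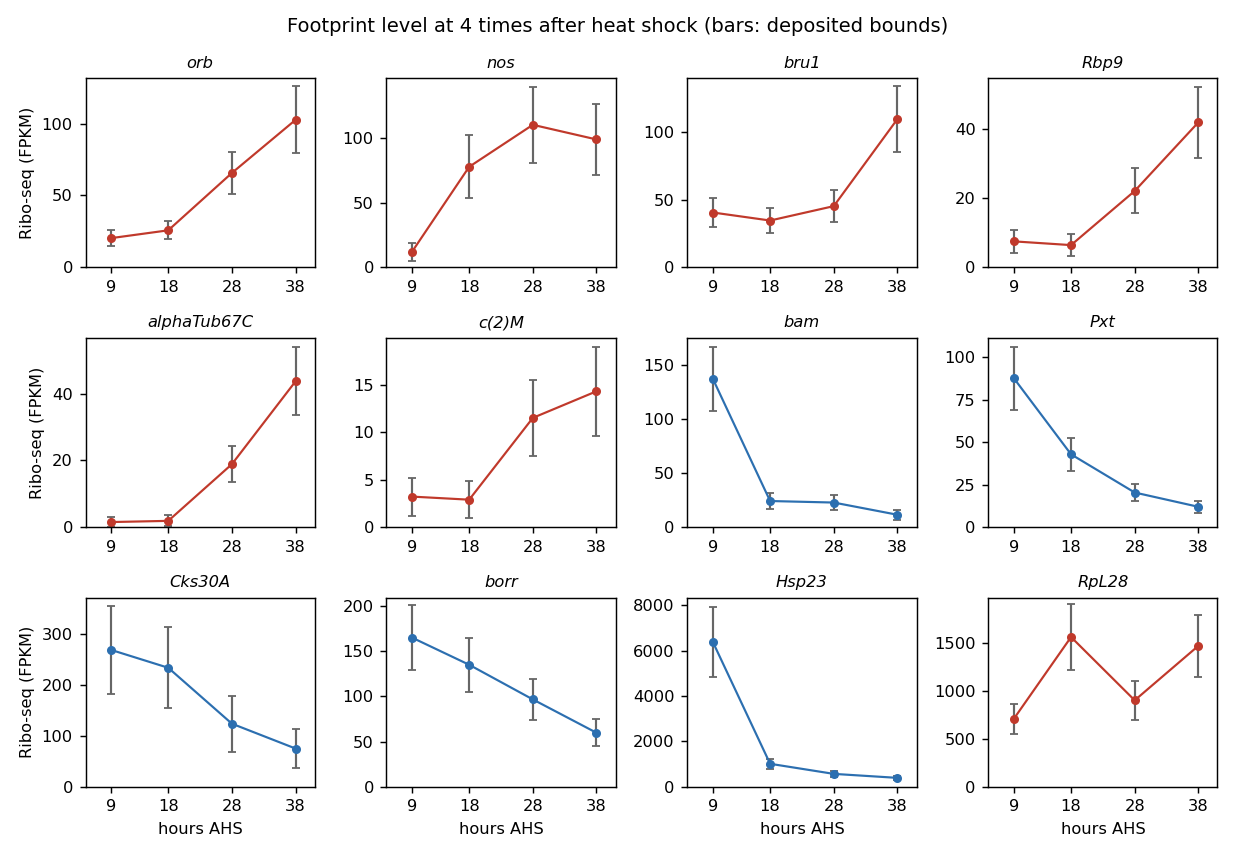
Ribo-seq level (FPKM, linear axes from 0) of 12 named genes at 9, 18, 28 and 38 h AHS. Points are the authors' pooled values, bars the deposited bounds, red genes were higher and blue genes lower at 38 h than at 9 h; nos was already at 77.8 FPKM at 18 h whereas bru1 was at 45.3 FPKM at 28 h and 110 FPKM at 38 h.

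The 4 time points showed that these genes did not move at the same hour. nos had 77.8 FPKM at 18 h and 110 FPKM at 28 h, so its level at 18 h was already above the 9 h bounds. orb had 25.7 FPKM at 18 h, level with its upper bound at 9 h, and 65.7 FPKM at 28 h. Rbp9 had 6.43 FPKM at 18 h, within its 9 h bounds, and 22.1 FPKM at 28 h, above them. bru1 had 34.6 FPKM at 18 h and 45.3 FPKM at 28 h, and only its 38 h value lay outside the 9 h bounds. On the falling side, bam had 24.1 FPKM at 18 h and 22.7 FPKM at 28 h, whereas Pxt had 42.8 and 20.3 FPKM. Over all genes called higher at 38 h, the median level over 9, 18, 28 and 38 h was 19.4, 32.7, 34.7 and 42.6 FPKM. Over those called lower it was 36.2, 25.0, 22.3 and 18.5 FPKM. These ratios share the 9 h column, and the genes were selected by their 38 h value.

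Several genes for the oocyte and egg rose. alphaTub67C, the maternal alpha-tubulin gene, rose 29.3-fold, from 1.49 FPKM at 9 h (0.114 to 2.87) to 43.7 FPKM at 38 h (33.4 to 53.9), and had 1.85 and 18.8 FPKM at the times between. It was included through its 38 h level alone. grk, which encodes the ligand by which the oocyte signals to follicle cells, had 4.69 FPKM at 9 h (1.15 to 8.23) and 19.1 FPKM at 38 h (11.6 to 26.6). Like alphaTub67C, grk was included through its 38 h level alone. The germline gamma-tubulin gene gammaTub37C had 18.3 FPKM at 9 h and 36.5 FPKM at 38 h, whereas the ubiquitous gammaTub23C had 66.8 FPKM at 9 h and 29.1 FPKM at 38 h. The 2 gamma-tubulin genes thus moved in opposite directions, with log2 ratios of 1.00 and -1.20 and bounds apart in both. BigH1, the germline and early embryonic linker histone, rose from 24.5 to 48.8 FPKM. Of 32 included maternal and egg genes, 5 rose (15.6%, against 5.58% of all included genes) and 3 fell (9.38%, against 4.1%), a further 5 were higher and 2 lower by fold only, and the median log2 ratio was 0.00. Of 44 included genes for tubulins and fusome components, 4 rose (9.09%) and 3 fell (6.82%), not far from the 5.58% and 4.1% of all included genes. alpha-Spec, a structural protein of the fusome, had a log2 ratio of -0.69 and an RNA log2 ratio of -0.12, a call lost (-0.23) when the median of its coding length class was subtracted.

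Meiotic genes did not move as a block. c(2)M, a component of the lateral element of the synaptonemal complex, had 3.21 FPKM at 9 h (1.21 to 5.22) and 14.3 FPKM at 38 h (9.63 to 19.0). vilya and narya, which encode RING-type proteins of the recombination nodule, had 4.46 and 19.7 FPKM at 9 h and 15.6 and 53.8 FPKM at 38 h. mei-217, a crossover gene related to the MCM helicases, had 19.9 FPKM at 9 h and 46.3 FPKM at 38 h. In the other direction, cona, which encodes a central region protein of the synaptonemal complex, had 132 FPKM at 9 h (101 to 163) and 62.4 FPKM at 38 h (45.3 to 79.5). Of 32 included meiotic genes, 4 rose (12.5%, against 5.58% of all included genes), 1 fell (3.12%, against 4.1%), 1 more was higher and 3 more lower by fold only, and 23 were not called. png, a kinase gene of the egg-to-embryo transition, was higher by fold only, with a log2 ratio of 0.80 and bounds of 2.58 to 10.2 FPKM at 9 h that overlapped those of 6.01 to 16.2 FPKM at 38 h. c(2)M, vilya and png were included through their 38 h level alone, so each could only be higher there.

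Among 37 included genes of the list named for the piRNA pathway, 3 rose (8.11%, near the 5.58% of all included genes) and none fell. moon (moonshiner), a germline transcription factor for piRNA clusters, had 11.3 FPKM at 9 h (3.83 to 18.7) and 40.4 FPKM at 38 h (25.9 to 54.8). Gasz, a mitochondrial scaffold of piRNA biogenesis, had a log2 ratio of 0.73. The remaining gene, Lsd-1 with 32.3 FPKM at 9 h and 71.8 FPKM at 38 h, encodes a lipid droplet protein and does not act in this pathway. rhi, an HP1 homologue that marks piRNA clusters, had 16.5 and 29.3 FPKM with bounds that overlapped.

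DNA replication genes were mostly lower at 38 h. Of 49 included genes, 18 fell (36.7%), none rose and 31 were not called, against 4.1% of all included genes that fell. The median log2 ratio was -0.54 in Ribo-seq and -0.38 in RNA-seq, 44 of the 49 ratios were below 0, and none of the 48 genes compared differed by over 1.6-fold between its footprint change and its RNA change. Orc6, a subunit of the origin recognition complex, had 78.1 FPKM at 9 h (58.6 to 97.7) and 31.8 FPKM at 38 h (21.2 to 42.4). Orc2, of the same complex, had 32.0 and 14.5 FPKM, and Pol32, a subunit of DNA polymerase delta, had 30.3 and 13.3 FPKM. The 2 subunits of ribonucleotide reductase, which makes deoxynucleotides, fell together, RnrS from 336 to 158 FPKM and RnrL from 196 to 96.6 FPKM. PCNA, the sliding clamp, had 628 FPKM at 9 h (491 to 765) and 434 FPKM at 38 h (339 to 529) and was not called. Most of the difference was present by 18 h for some members, such as Orc6 with 38.2 FPKM, and later for others, such as RnrS with 257 FPKM at 18 h and 167 FPKM at 28 h.

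Replication genes are classic targets of the transcription factor E2F, so their promoters were searched for its site, written as TTTCCCGC, TTTCGCGC, TTTGCCGC or TTTGGCGC on either strand. The window ran from 250 bases before to 50 bases after the start of the Ensembl canonical transcript, and the letters were read from the RefSeq Release 6 genome. A match was present in 22 of 49 replication promoters (44.9%) and in 9 of the 18 that fell (50.0%), so the share was similar in the whole list and in the genes that fell. It was present in 6.48% of 13944 protein-coding promoters, in 7.19% of the promoters of all included genes and in 8.32% of those of all genes called lower. The sites of the genes that fell are shown because many of these promoters carry one, each as 30 bases in the direction of transcription with the match in capitals. A match was also present for Orc1, Orc6 and RnrS, which are named only. DNApol-epsilon255 and DNApol-epsilon58 encode subunits of DNA polymerase epsilon, Mcm5 a subunit of the replicative helicase, and Caf1-180 a subunit of the chromatin assembly factor.
Mcm5, chr3R:10788544-10788573: ccggtaattttgGCGGCAAAatattcgcac
DNApol-epsilon255, chr3R:23348030-23348059: ttttgaaattgGCGCCAAAcgtgttacttt
DNApol-epsilon58, chr3L:5897386-5897415: atatctaatttgcGCGCGAAAaaactttta
Pol32, chr2L:15256278-15256307: ccgcaatacgaTTTCGCGCaattttaacta
RnrL, chr2L:10327923-10327952: aatgactttaaTTTGGCGCctttttgtgct
RnrL, chr2L:10327894-10327923: ttgcaacaatcaaTTTGCCGCctcttgtga
Caf1-180, chrX:8606309-8606338: cggatctattgGCGGCAAAgcgcaaccgca
Mcm5 and DNApol-epsilon255 lie on the plus strand and the others on the minus strand. The matches of DNApol-epsilon255 and Caf1-180 start 87 and 23 bases before the transcript start, and those of Mcm5, DNApol-epsilon58 and Pol32 start at transcribed bases 33, 34 and 9. A match is a stretch of letters and not evidence of binding. The DRE octamer TATCGATA, the site of another activator of replication genes, was found in 28.6% of the replication promoters, 16.2% of the promoters of all included genes and 8.94% of all promoters.

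Genes for cyclins and mitosis also had a lower median at 38 h, more so in footprints than in RNA. Of 77 included genes, 18 fell (23.4%, against 4.1% of all included genes), 2 rose (2.6%, against 5.58%) and 4 more were lower by fold only, and the median log2 ratio was -0.46 in Ribo-seq and -0.17 in RNA-seq. Cks30A, a Cdk-binding subunit of the Cks family that is required for meiosis, had 269 FPKM at 9 h (183 to 356) and 75.2 FPKM at 38 h (37.4 to 113), with 234 and 124 FPKM at the times between. Its RNA had 61.2 FPKM at 9 h and 52.6 FPKM at 38 h, so a 3.58-fold fall in footprints stood beside an RNA log2 ratio of -0.22. borr, of the chromosomal passenger complex, had 165 FPKM at 9 h (129 to 201) and 59.8 FPKM at 38 h, where the upper bound was 74.6 FPKM. fzy, the Cdc20 activator of the anaphase-promoting complex, had 200 FPKM at 9 h and 92.8 FPKM at 38 h, and its RNA fell to a similar degree, since the footprint ratio minus the RNA ratio was -0.10 on the log2 scale. thr, another gene of the mitotic list, had a log2 ratio of -1.13.

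The mitotic cyclins, named here after their values were seen, differed from fzy in this respect. CycB had 147 FPKM at 9 h (116 to 179) and 71.9 FPKM at 38 h (55.8 to 87.9) in Ribo-seq, but 91.1 and 123 FPKM in RNA-seq. Its footprints therefore fell while its RNA was higher, with log2 ratios of -1.04 and 0.43. CycA had 107 and 49.7 FPKM in Ribo-seq and 123 and 98.5 FPKM in RNA-seq. Across the list, the footprint change was over 1.6-fold below the RNA change in 9 of 75 genes, against 3.58% of all genes compared, and above it in 1. Among regulators of the G1 and G2 transitions, CycE had 38.6 FPKM at 9 h and 40.4 FPKM at 38 h, and neither it nor stg was called. For stg, the Cdc25 phosphatase, the levels were 12.8 and 15.4 FPKM. Others in the list, such as Cdk4 and Rca1, were called lower, with log2 ratios of -1.01 and -0.72. lok, the checkpoint kinase Chk2, and CycG rose, both with a log2 ratio of 0.82.

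Most cytosolic ribosomal protein genes had higher footprint levels at 38 h while their RNA differed little. Of 90 included genes, 15 rose (16.7%, against 5.58% of all included genes), none fell, and 75 had a log2 ratio above 0, with a median of 0.33 in Ribo-seq and 0.08 in RNA-seq. The difference between the assays was small for most members. In 6 of 89 genes compared, the footprint change was over 1.6-fold above the RNA change, against 4.75% of all genes compared, and in none below it. RpL28 had 707 FPKM at 9 h (552 to 863) and 1469 FPKM at 38 h (1147 to 1790), with RNA levels of 1544 and 1693 FPKM. RpL37A had 2526 FPKM at 9 h (1971 to 3082) and 5171 FPKM at 38 h (4043 to 6299), with RNA levels of 1414 and 1448 FPKM. RpL12 and sta, which encodes the small-subunit protein RpSA, had log2 ratios of 0.91 and 0.89. Their summed level differed less, with 385023 FPKM at 9 h and 396485 FPKM at 38 h, or 9.69% and 10.7% of all footprints. The level was not steady over time: RpL28 had 1560 FPKM at 18 h and 901 FPKM at 28 h, and the list's median log2 ratio to 9 h over the 3 later times was 0.49, 0.01 and 0.33. Ribosomal protein genes are short, with 88 of the 90 at or under 1200 coding bases. When the median of each gene's coding length class was subtracted, a choice made after seeing the data, 8 of the 90 were still called higher and none lower, with a median of 0.27.

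Other parts of the protein synthesis and turnover machinery moved less. Of 43 included translation factors, 2 rose (4.65%, no more than the 5.58% of all included genes) and none fell: eEF1beta, an elongation factor subunit, from 433 to 766 FPKM, and eIF3j, an initiation factor subunit, from 123 to 215 FPKM, with RNA log2 ratios of 0.08 and 0.05. Of 73 mitochondrial ribosomal proteins, 1 fell (1.37%, against 4.1% of all included genes) and none rose, with a median log2 ratio of -0.08. The gene that fell was mRpL32, from 180 to 107 FPKM. None of 29 aminoacyl-tRNA synthetases, 32 proteasome subunits or 31 nucleolar genes rose or fell with bounds apart, and their medians were -0.16, -0.18 and -0.10. Of 68 genes of the respiratory chain and ATP synthase, 3 rose (4.41%, no more than the 5.58% of all included genes), none fell and 2 were lower by fold only. The 2 lower genes were COX7AL and COX3, and COX3 is mitochondrially encoded and so also belongs to the set of mitochondrial genes described below. These 3 (ATPsynCF6, ND-B12 and ATPsynG) had RNA log2 ratios of 0.01, -0.03 and 0.08 beside Ribo-seq ratios of 0.88, 0.85 and 0.76.

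**Figure D3:**
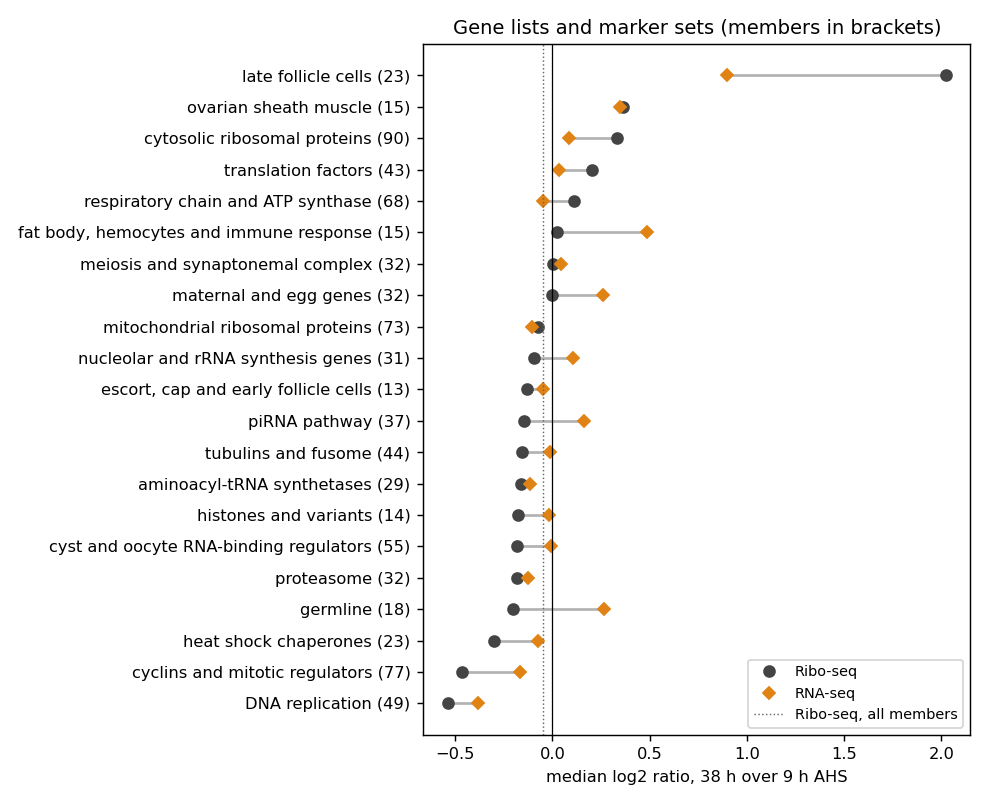
Median log2 ratio of 38 h over 9 h AHS (x axis) for the 16 gene lists and 5 marker sets, with the number of included genes in brackets. Dark circles are Ribo-seq and orange diamonds RNA-seq; late follicle markers stand at 2.02 in Ribo-seq, cytosolic ribosomal proteins at 0.33, and DNA replication at -0.54, and the dotted line is the median of all included genes.

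The 13 protein genes of the mitochondrial genome, grouped after their values were seen, were all below 0 in log2 ratio at 38 h, with a median of -0.88. Of these, 8 fell (61.5%, against 4.1% of all included genes). ATP6, a subunit of the ATP synthase, had 12084 FPKM at 9 h (8752 to 15417) and 5481 FPKM at 38 h (4143 to 6819), with 680 and 2573 FPKM at the times between. ND2, a subunit of complex I, had 558 FPKM at 9 h and 213 FPKM at 38 h. The lowest point of these genes was at 18 h, where their estimated share of all footprints was 0.437%, against 6.77% at 9 h and 3.68% at 38 h. All 13 were listed at 0 in RNA-seq at 9 h and 38 h, so no RNA ratio was available, and mitochondrial and cytosolic ribosomes are different particles.

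The small heat shock protein genes Hsp23, Hsp27, Hsp26 and Hsp22 and the inducible Hsp68 fell between the 2 times, which follow the same heat shock. These were the 5 of 23 included chaperone genes that fell (21.7%, against 4.1% of all included genes), while 1 rose and 17 were not called. Hsp23, a small heat shock protein, had 6378 FPKM at 9 h (4822 to 7934) and 393 FPKM at 38 h (308 to 477), with 1013 and 569 FPKM at the times between. Hsp27 had 2934 FPKM at 9 h and 550 FPKM at 38 h, and Hsp26 had 1465 and 324 FPKM. Their RNA fell as well, with log2 ratios of -3.13, -1.65 and -1.47, and in all 3 the footprint change exceeded the RNA change by over 1.6-fold. The constitutive Hsp83 (Hsp90) was not called, with 1099 FPKM at 9 h and 987 FPKM at 38 h. The J-domain co-chaperone gene Droj2 was the 1 that rose, from 313 to 507 FPKM.

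The heat shock element is bound by the heat shock factor as inverted repeats of a short unit, here searched as GAANNTTC on either strand in the promoter window described above. It was present in 10 of 23 chaperone promoters (43.5%), in 3 of the 5 that fell, in 8.66% of the promoters of all included genes and in 9.35% of 13944 protein-coding promoters. The sites of those 3 genes are shown with the match in capitals; of the 4 matches in Hsp68 the one nearest to the start is given.
Hsp23, chr3L:9381733-9381762, plus strand: tttcagcccgaGAAGTTTCgtgtcccttct
Hsp26, chr3L:9377537-9377566, minus strand: cttttataaaaGAAATTTCtaatttgatcc
Hsp68, chr3R:24057345-24057374, minus strand: agggaaatctcGAATTTTCccctcccggcg
The letters of this motif were not found within the window of Hsp22 or Hsp27.

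Several of the largest changes were in genes of no list. CG43191 had 0.961 FPKM at 9 h and 23.8 FPKM at 38 h, and CG11674 had 0.794 and 11.3 FPKM, both with RNA that was also higher (log2 ratios of 4.35 and 3.05). CG6762 had 5.74 FPKM at 9 h (0 to 13.1) and 50.8 FPKM at 38 h (28.0 to 73.6), with 18.3 and 39.5 FPKM at the times between and an RNA log2 ratio of 0.80. Ir7c, an ionotropic receptor gene, had 2.14 and 20.0 FPKM and CG18598 had 101 and 727 FPKM. The other members of the 12 largest rises were CG43965, CG14410, CG14187 and CG13114, besides nos, alphaTub67C and the vitelline membrane gene Vm26Ac, with log2 ratios of 3.33, 3.31, 3.23 and 3.10. CG14187 and CG13114 are on the study's list of contaminants, as is Vm26Ac. CG43191, CG11674, CG6762, Ir7c, CG14410, CG13114 and alphaTub67C were included through their 38 h level alone, so they could only be higher there.

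On the falling side, CG14516 had 28.0 FPKM at 9 h (21.6 to 34.4) and 6.28 FPKM at 38 h (4.24 to 8.32), while its RNA had 40.7 and 46.9 FPKM. Galphao, a G protein alpha subunit, had 125 FPKM at 9 h and 38.4 FPKM at 38 h with an RNA log2 ratio of -0.32. GXIVsPLA2, a secreted phospholipase, had 128 and 39.3 FPKM with an RNA log2 ratio of -0.01. CG31418 reached 376 FPKM at 18 h between 60.4 FPKM at 9 h and 15.7 FPKM at 38 h. Its RNA was listed at 0 at 9, 18 and 28 h and at 0.0145 FPKM at 38 h, so its footprints had almost no RNA beside them. CG42704 and CG43090 stood apart, since their footprints were lost while their RNA appeared. CG42704 had 55.7 FPKM at 9 h (29.9 to 81.5) and 0.973 FPKM at 38 h (0 to 3.99) in Ribo-seq, but 0.404 and 73.3 FPKM in RNA-seq. CG43090 had 32.1 and 0.500 FPKM in Ribo-seq and was listed at 0 and at 51.6 FPKM in RNA-seq. CG14516, CG42704 and CG43090 were included through their 9 h level alone, so they could only be lower at 38 h.

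Very short coding regions limited what could be read at the edges of the table. Of the 23 included genes listed at 0 in 1 of the 2 columns, 21 had coding regions of 300 bases or fewer, with a median of 156 bases. The extreme was tal-1A, a small open reading frame of the polycistronic tarsal-less mRNA that encodes a short signalling peptide, listed at 0 at 9 h and with 10908, 8438 and 5113 FPKM over the 3 later times. Its whole annotated coding sequence, with the start codon in capitals, is printed to show the size of such a feature against a footprint of 28 to 34 nt.
tal-1A, chr3R:13813526-13813558, plus strand: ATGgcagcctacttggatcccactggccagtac
At 33 bases it was no longer than 1 footprint, so its FPKM is not comparable with that of longer genes. The neighbouring reading frame tal-3A had 8599 FPKM at 9 h and 19350 FPKM at 38 h, with bounds that overlapped. CG31517 and CG42662 were listed at 0 at 9 h with 23.5 and 34.3 FPKM at 38 h, and CG46310, BomS3 and CG43407 at 0 at 38 h with 158, 97.2 and 64.6 FPKM at 9 h. For such genes no fold is given. The largest levels among called genes were those of the vitelline membrane genes Vm34Ca, Vm26Ab and Vm26Aa, with 148684, 79198 and 70816 FPKM at 38 h. At the inclusion limit, CG8412, CG12206 and CG8888 lay just inside with 10.0, 10.0 and 9.95 FPKM at 38 h and 8.73, 9.04 and 10.0 FPKM at 9 h. CG10979, CG30394 and Ten-m lay just outside, with higher values of 10.0, 9.99 and 9.99 FPKM.

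RNA-seq of the same time points gave a second view of the same genes. A log2 ratio in both assays was available for 6392 genes, and across genes, which are not independent replicates, Pearson's r was 0.54 and Spearman's rho 0.52. The RNA ratios were narrower, with an interquartile range of 0.33 against 0.62 in Ribo-seq on the log2 scale, and a median of -0.01. RNA was over 1.6-fold higher in 4.57% and lower in 1.17% of the 6410 included genes with an RNA ratio. Of 629 genes called higher in footprints that had an RNA ratio, 200 (31.8%) were over 1.6-fold higher in RNA too, 9 were lower and 420 lay within 1.6-fold, with a median RNA log2 ratio of 0.38. Of 452 called lower, 51 (11.3%) were lower in RNA too, 13 were higher and 388 lay within 1.6-fold, with a median of -0.28.

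**Figure D4:**
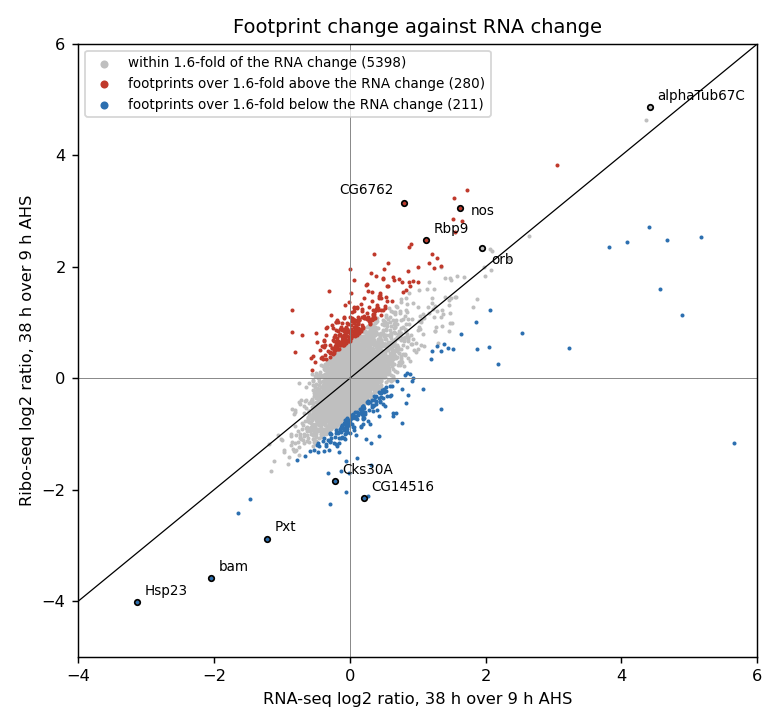
RNA-seq log2 ratio (x axis) against Ribo-seq log2 ratio (y axis), 38 h over 9 h AHS, for 5889 genes over 10 FPKM in RNA-seq at 9 h or 38 h. The line is equality; red marks 280 genes whose footprint change was over 1.6-fold above the RNA change and blue 211 genes below it, with Cks30A and CG14516 far below the line and CG6762 far above; CG42704 lies outside the axes.

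Where the footprint change and the RNA change were compared directly, 280 of 5889 genes (4.75%) had footprints over 1.6-fold above the RNA change and 211 (3.58%) below it. nos and Rbp9 were on the upper side, with footprint log2 ratios of 3.06 and 2.48 beside RNA ratios of 1.62 and 1.12. orb and bru1 were close to their RNA, with differences of 0.39 and 0.22. Pxt was on the lower side, with -2.88 in footprints and -1.22 in RNA. Among genes below the inclusion limit, the egg genes osk and dhd had RNA at 38 h with few footprints. osk, which encodes the organiser of the posterior pole plasm, had RNA of 0.243 FPKM at 9 h and 58.1 FPKM at 38 h, whereas its footprints had 0.135 FPKM (0 to 0.842) and 1.64 FPKM (0.289 to 3.00). dhd, a female germline thioredoxin, had RNA of 10.0 and 142 FPKM and footprints of 4.67 FPKM (0 to 11.7) and 8.17 FPKM (0 to 16.8). The other named genes were not called: mod, Dp1, Cirl and Trf5 had footprint log2 ratios of -0.08, -0.10, -0.05 and 0.13.

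The ratio also varied with the length of the coding region, in footprints and not in RNA. The median Ribo-seq log2 ratio was 0.07 for genes of over 300 to 600 coding bases, 0.08 for those up to 1200, -0.03 up to 2400, -0.24 up to 4800 and -0.46 for the 303 genes over 4800. The RNA medians of these classes lay between -0.03 and 0.00. A coding length was known for 6465 included genes. Across those that also had a log2 ratio in the assay, Spearman's rho between length and ratio was -0.26 in Ribo-seq and -0.04 in RNA-seq, given as a description. Of the genes over 4800 coding bases, 17.5% were called lower and 2.31% higher, against 4.27% and 13% of those over 600 and up to 1200. The 291 genes of 300 coding bases or fewer had many calls both ways, with 14.8% lower, 17.5% higher and a median Ribo-seq log2 ratio of 0.00. Compared with 9 h, the longest class was at -0.30 at 18 h and at -0.30 at 28 h. Among the lists this touched long members such as pum, alpha-Spec and stau, and the part of coding length in the changes of single genes was not tested. With the median of each coding length class subtracted, 13 of 49 replication genes and 16 of 77 mitotic genes were called lower, with medians of -0.47 and -0.36. Among the replication genes, the calls of Caf1-180, DNApol-epsilon255, Mcm5 and Orc1 were lost, with adjusted log2 ratios of -0.44, -0.25, -0.66 and -0.63. Those of DNApol-alpha180 and Gnf1 were lost too, at -0.52 and -0.47, and not all of the 13 had been called before the subtraction. alphaTub67C, nos and orb, with coding regions of 1386, 1203 and 2745 bases, stayed above 1.6-fold.

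**Figure D5:**
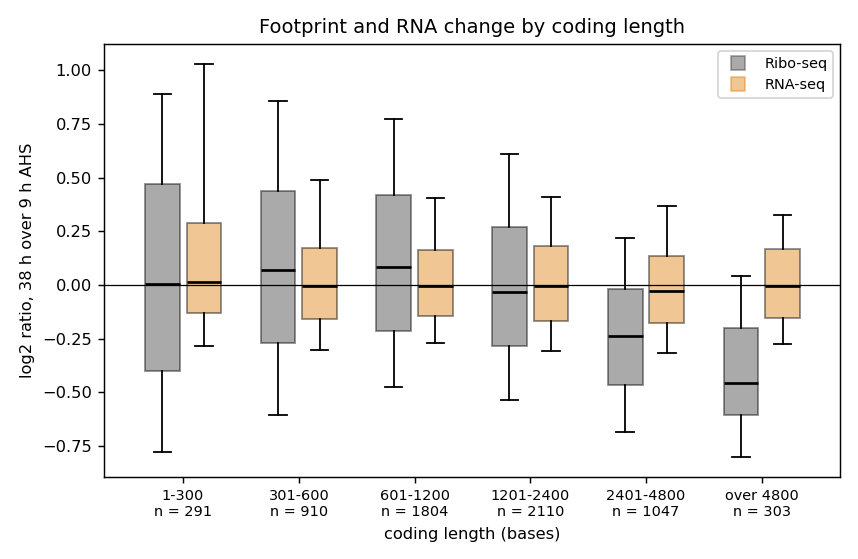
Log2 ratio of 38 h over 9 h AHS (y axis) by class of coding length (x axis, bases, with the number of genes) in Ribo-seq (grey) and RNA-seq (orange). Boxes span the quartiles with the median as a line, and whiskers span the 10th to 90th percentile; the Ribo-seq median is 0.08 at over 600 to 1200 bases and -0.46 over 4800 bases, and the RNA medians stay near 0.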

How the data were processed

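Ovaries were lysed with cycloheximide, and RNase I footprints of 28 to 34 nt were sequenced. Per the paper's methods, the authors trimmed the reads, collapsed identical reads, removed non-coding RNA with Bowtie, mapped the rest to dm6 with STAR and ran Cuffdiff 2.2.1, and they deposited 1 FPKM value with bounds per gene and time point, pooled over 2 samples, for Ribo-seq and for RNA-seq. Library normalisation is not given in the sources used here. Per the same methods, identical Ribo-seq reads were collapsed before random bases added in library preparation were removed from both ends. Whether collapsing lowered the counts of the most abundant footprints was not tested.

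Ratios, calls and medians were computed with Python 3.11, pandas and numpy, and the calling step was tested on simulated data. A log2 ratio used no pseudocount. No count model was possible: the deposited FPKM are not whole reads. Among genes with 1 coding length, the most common low value of FPKM times coding kilobases over 9, 18, 28 and 38 h was 0.19, 0.27, 0.13 and 0.17. The 9 h and 38 h values were similar, and a gene of 1 kb at 10 FPKM stood at about 52.6 and 58.8 times these values. They come from pooled and normalised values and do not measure the depth of each library. Table symbols were matched to Ensembl BDGP6 genes by name (13355) or older name (579), and 34 were not matched. The locus in the Ribo-seq table equalled the annotated coding span within 3 bases for 92.2% of matched genes, and 557 included genes shared a locus entry with another gene, so their reads may be split between genes.

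The named genes were 20 genes that the paper names for Ribo-seq, the 12 largest rises and 12 largest falls with bounds apart, up to 4 called members of each list, up to 5 genes a side at 0 in 1 column, the 6 highest called levels and 3 genes on each side of the limit. Members and lists were chosen with earlier results of these data known. Alternatives changed the fold, the minimum, the scaling, the pseudocount and the genes included.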

Additional observations from a re-analysis of the deposited data

How the results depend on the processing

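No paired analysis was possible because each time point has 1 pooled value per gene, and for the same reason no replicate could be left out. With a fold threshold of 2, 475 genes were called (315 higher, 160 lower) and 322 with bounds apart (223 rose, 99 fell). With no FPKM minimum, 3897 genes were called by fold (1997 higher, 1900 lower), while the count with bounds apart stayed within 1.5 times. With the median of each coding length class subtracted, an alternative added after seeing the data, 176 genes fell with bounds apart in place of 266. The median RNA log2 ratio of genes called higher was 0.50 with bounds apart and 0.67 at a fold of 2, and that of genes called lower was -0.42 at a fold of 2. Footprint changes not matched by RNA numbered 81 above and 50 below at a fold of 2, and 131 below with an RNA minimum of 20 FPKM. The other alternatives (a minimum of 20 FPKM, rescaling, a pseudocount of 1, and leaving out listed heat shock and contaminant genes, late follicle markers, mitochondrially encoded genes or short coding regions) kept the counts within 1.5 times. Rescaling to the same median did shift the balance of directions, with 743 genes called higher and 378 lower. It also gave 357 footprint changes above and 156 below the RNA change. No estimate had failed at 9 h or 38 h in Ribo-seq. No called gene of the named set changed direction under rescaling, a pseudocount or the length adjustment. The length adjustment moved 6 of 16 list medians by over 0.1: cyclins and mitotic regulators from -0.46 to -0.36, RNA-binding regulators from -0.18 to -0.07, tubulins and fusome from -0.16 to -0.03, aminoacyl-tRNA synthetases from -0.16 to -0.03, maternal and egg genes from 0.00 to 0.19 and the piRNA list from -0.14 to 0.01. A minimum of 20 FPKM moved 2, the mitotic list to -0.33 and the meiotic list from 0.00 to -0.22. Depth limits the short and weakly covered genes most.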
